A study of Rattus norvegicus with 12 samples.

Results

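The mitochondrial genome of animals encodes a small set of proteins, all of them subunits of the respiratory chain or of the ATP synthase. Expression of 9 of these genes was examined in rat dorsal root ganglia, the clusters of sensory neuron cell bodies beside the spinal cord. The genes were those carrying 1 of 10 listed Mt- symbols in a table of FPKM (fragments per kilobase of transcript, scaled to the mapped fragments of the library) with 25252 genes in all. Of the listed symbols, 9 were found: Mt-nd2, Mt-nd4l and Mt-nd4 of complex I, Mt-cyb of complex III, Mt-co1, Mt-co2 and Mt-co3 of complex IV, and Mt-atp8 and Mt-atp6 of the ATP synthase. The listed symbol Mt-nd1 was not found, and the table carries the gene as ND1. ND1, ND3, Mt-nd5 and Mt-nd6 complete the 13 mitochondrially encoded protein genes of the table and are given below for comparison.

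Ganglia came from Sprague Dawley rats of wild genotype in 3 groups of 4 biological replicates, and the labels give neither age nor sex. Vehicle rats were given the solvent alone, which was saline containing 1% DMSO and 0.1% Tween 20. Rats of the cisplatin group received the platinum chemotherapeutic cisplatin by intraperitoneal injection at 3 mg/kg on days 0, 7 and 14. The third group received the same cisplatin course and, from day -1 to day 20, a daily injection of CYM-5478, which the study used to activate the sphingosine-1-phosphate receptor S1P2. Its dose differs between sources, being 0.1 mg/kg in the sample labels but 1 mg/kg in the written protocol. No group received CYM-5478 without cisplatin, so the compound's effect in healthy ganglia was not analysed here. The comparison of cisplatin with vehicle asks what the drug changes in the ganglion, and the comparison of the groups with and without CYM-5478 asks what the compound changes under cisplatin. These comparisons share the cisplatin libraries, so a library that is high in that group moves both.

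Both strands of the circular mitochondrial DNA are transcribed by a dedicated polymerase, POLRMT, into long transcripts that span many genes. Excision of the transfer RNAs lying between the coding regions releases the individual messenger RNAs, and the stability of each then helps to set its level. All 9 genes lie in the same orientation, whereas Mt-nd6 is read from the opposite strand. Every respiratory complex that contains a mitochondrial subunit also contains subunits encoded in the nucleus. Sensory neurons are large cells with long axons and a high demand for ATP, and cisplatin forms adducts with mitochondrial as well as nuclear DNA. No reference sequence of the rat mitochondrial genome was at hand, so neither sequences nor coordinates are printed.

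The 9 genes were among the most abundant of the table. Averaged over the 12 libraries, Mt-atp8 ranked 1, Mt-co1 ranked 3, Mt-co3 ranked 6 and Mt-co2 ranked 7 of all genes by FPKM, and the lowest of the 9, Mt-nd2, ranked 55 with a mean of 1137 FPKM. Mt-atp8 stood highest, at a mean of 24395 FPKM, followed by Mt-co1 at 11149.5 FPKM and Mt-co3 at 6859 FPKM. Mt-co2 followed at 5013 FPKM, Mt-nd4l at 3281 FPKM, Mt-atp6 at 2537 FPKM, Mt-cyb at 1841 FPKM and Mt-nd4 at 1623 FPKM. FPKM is a level per length, and Mt-atp8 and Mt-nd4l are very short reading frames that overlap Mt-atp6 and Mt-nd4 on shared messenger RNAs. How fragments in the shared stretches were assigned is not given in the sources used here, and copies of mitochondrial DNA in the nuclear genome can also take or lend fragments, so the order of these levels is uncertain for such genes.

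In the cisplatin ganglia the mean FPKM of all 9 genes was above that of the vehicle ganglia, and with CYM-5478 it was below that of cisplatin alone for all 9. No gene passed the threshold, an adjusted p under 0.05, in either comparison. The fitted log2 changes ran from 0.04 to 0.69 for cisplatin against vehicle, with a median of 0.45 where the median over all 16753 tested genes was 0.02. They ran from -0.72 to -0.15 for CYM-5478 with cisplatin against cisplatin, with a median of -0.40 where that over all genes was -0.02. After quantile normalization these medians were 0.06 and -0.13, where those over all genes were 0.03 and -0.03. That method sets values by rank, and the 9 genes ranked 1 to 55 in the table, so it can shrink or displace their changes by construction. Between CYM-5478 with cisplatin and vehicle the 9 changes ran from -0.20 to 0.17, with a median of 0.02. Differences were tested with limma on scaled log2(FPKM + 0.5) values in a fit across all genes, with Benjamini-Hochberg adjustment over all of them, and the replicates are the unit of error. Because ganglia are mixtures of cell types, fewer cells of a type and less RNA per cell cannot be told apart.

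**Figure D1:**
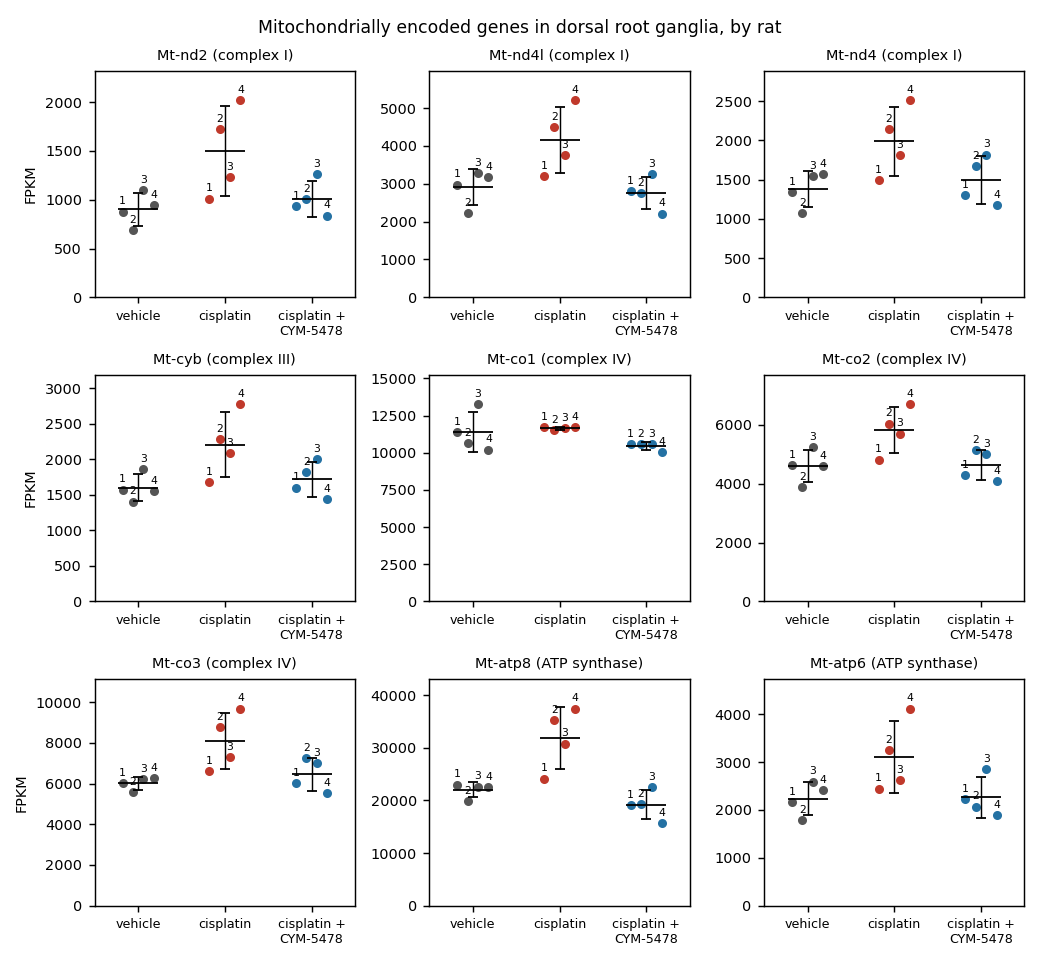
Deposited FPKM of the 9 genes in vehicle, cisplatin and cisplatin with CYM-5478 ganglia. Each point is 1 rat, numbered by replicate, and the bar and whiskers are the mean ± SD of 4. Cisplatin replicate 4 stood highest in its group for 8 of the 9 genes, and the cisplatin libraries of Mt-co1 lay close together between 11512 and 11719.9 FPKM.

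The 3 complex I genes encode hydrophobic subunits of the membrane arm of NADH dehydrogenase, the entry point of electrons from NADH. Mt-nd2 was at 879, 689.5, 1097 and 944 FPKM in vehicle replicates 1 to 4, at 1012, 1728, 1233 and 2021 FPKM in the cisplatin replicates, and at 932, 1003, 1266 and 836 FPKM with CYM-5478. Cisplatin replicates 2 and 4 lay above all other libraries, whereas cisplatin replicate 1 lay within the vehicle range, so the groups overlapped. The means were 902 ± 169, 1498 ± 459 and 1009 ± 184 FPKM (SD, n = 4 each). Mt-nd2 had the largest fitted change of the 9 genes under cisplatin, 0.69 on the log2 scale (SE 0.22, limma adjusted p = 0.0629). The change from cisplatin to cisplatin with CYM-5478 was -0.52 (SE 0.22, limma adjusted p = 0.167). The first of these values crossed the threshold without cisplatin replicate 1, at 0.87 with a limma adjusted p of 0.0474, and when libraries were weighted by their quality, at 0.73 with a limma adjusted p of 0.0454. Over the 25 alternatives its limma adjusted p ran from 0.0454 to 0.305.

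Mt-nd4l was at 2976, 2226, 3288 and 3179.6 FPKM in the vehicle replicates, at 3206, 4493, 3761 and 5209.8 FPKM in the cisplatin replicates, and at 2814, 2756, 3249.5 and 2213 FPKM with CYM-5478. Only cisplatin replicate 1 fell inside the range of the other groups. Its fitted log2 change was 0.50 under cisplatin (SE 0.19, limma adjusted p = 0.101) and -0.57 from cisplatin to cisplatin with CYM-5478 (SE 0.19, limma adjusted p = 0.0847). Its unadjusted limma p in the second comparison, 0.00953, was the smallest of the 9 genes there.

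Mt-nd4 was at 1346, 1077, 1550.0 and 1571 FPKM in the vehicle replicates, at 1492, 2141, 1815 and 2514 FPKM in the cisplatin replicates, and at 1301, 1678, 1819 and 1176 FPKM with CYM-5478. The ranges of all groups overlapped, and the same cisplatin replicates, 2 and 4, were the highest. The log2 change was 0.51 under cisplatin (SE 0.19, limma adjusted p = 0.11) and -0.40 with CYM-5478 against cisplatin (SE 0.19, limma adjusted p = 0.226). The ratio of Mt-nd4l to Mt-nd4, which share a messenger RNA, was 2.11 ± 0.0807 in vehicle rats, 2.10 ± 0.0365 after cisplatin and 1.87 ± 0.219 when CYM-5478 was added (SD, n = 4 each), and the groups overlapped.

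Mt-cyb encodes cytochrome b, the catalytic core subunit of complex III that carries electrons between quinone sites. It was at 1574, 1405, 1866 and 1554 FPKM in the vehicle replicates, at 1682, 2283, 2087 and 2772 FPKM in the cisplatin replicates, and at 1601, 1824, 2002 and 1443 FPKM with CYM-5478. Of the cisplatin libraries, 3 lay above every vehicle and every CYM-5478 library and replicate 1 did not. The means were 1599.7 ± 193, 2206 ± 453 and 1718 ± 246 FPKM (SD, n = 4 each). For cytochrome b the log2 change was 0.44 under cisplatin (SE 0.16, limma adjusted p = 0.0929) and -0.34 with CYM-5478 against cisplatin (SE 0.16, limma adjusted p = 0.216).

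The 3 complex IV genes encode the catalytic core of cytochrome c oxidase, which passes electrons to oxygen. Mt-co1, the subunit that holds the heme and copper centre where oxygen is reduced, was at 11382, 10634, 13248 and 10208 FPKM in the vehicle replicates, at 11719.9, 11512, 11636 and 11697 FPKM in the cisplatin replicates, and at 10577, 10588, 10576 and 10016 FPKM with CYM-5478. Every CYM-5478 library was below every cisplatin library, while the vehicle libraries spanned both groups. The means were 11368 ± 1344, 11641 ± 93.2 and 10439 ± 282 FPKM (SD, n = 4 each). Its log2 change was 0.04 under cisplatin (SE 0.16, limma adjusted p = 0.911, 95% interval -0.32 to 0.39) and -0.15 with CYM-5478 against cisplatin (SE 0.16, limma adjusted p = 0.613). The direction of the first change turned when values were taken as shares of the library, at -0.09.

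Mt-co2 carries the copper site that receives electrons from cytochrome c. It was at 4626, 3897, 5236 and 4604 FPKM in the vehicle replicates, at 4816, 6040.0, 5704 and 6695 FPKM in the cisplatin replicates, and at 4285, 5134, 5018 and 4100.1 FPKM with CYM-5478. Cisplatin replicate 1 again lay within the other ranges. The log2 change was 0.33 under cisplatin (SE 0.15, limma adjusted p = 0.175), and it was -0.05 after quantile normalization. The change with CYM-5478 against cisplatin was -0.31 (SE 0.15, limma adjusted p = 0.227), and it was 0.17 after quantile normalization.

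Mt-co3, the third core subunit, was at 6019.6, 5570.2, 6213 and 6285 FPKM in the vehicle replicates, at 6619, 8794, 7309 and 9688 FPKM in the cisplatin replicates, and at 6013, 7242, 7012 and 5549 FPKM with CYM-5478. All 4 cisplatin libraries were above all 4 vehicle libraries, and the CYM-5478 libraries overlapped with both groups. The means were 6022 ± 321, 8102 ± 1393 and 6454 ± 806 FPKM (SD, n = 4 each). The log2 change was 0.41 under cisplatin (SE 0.17, limma adjusted p = 0.13) and -0.31 with CYM-5478 against cisplatin (SE 0.17, limma adjusted p = 0.271), the latter turning to 0.07 after quantile normalization.

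The ATP synthase genes encode parts of its membrane sector: Mt-atp6 is the subunit that forms the proton path beside the rotor ring, and Mt-atp8 is a small subunit of the stator. Mt-atp8 was at 23005, 19945, 22627 and 22569 FPKM in the vehicle replicates, at 24159, 35331, 30818 and 37462 FPKM in the cisplatin replicates, and at 19164, 19291, 22612 and 15759 FPKM with CYM-5478. Every cisplatin library was above every library of the other 2 groups, and the other 2 groups overlapped. The means were 22036 ± 1408, 31943 ± 5882 and 19206 ± 2798 FPKM (SD, n = 4 each). On the log2 scale Mt-atp8 differed by 0.51 under cisplatin (SE 0.25, limma adjusted p = 0.208) and -0.72 from cisplatin to cisplatin with CYM-5478 (SE 0.25, limma adjusted p = 0.109). The second value crossed the threshold, at a limma adjusted p of 0.0397, when only genes with a mean of at least 2 FPKM were fitted. Over the 25 alternatives its limma adjusted p ran from 0.0397 to 1.0. Mt-atp8 had the highest FPKM in every library, so quantile normalization sets its change to 0.00 in all comparisons.

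Mt-atp6 was at 2159, 1792, 2592 and 2406 FPKM in the vehicle replicates, at 2448, 3258, 2617 and 4117 FPKM in the cisplatin replicates, and at 2233, 2071, 2860.1 and 1888 FPKM with CYM-5478. The groups overlapped, with cisplatin replicates 2 and 4 above all other libraries. On the same scale Mt-atp6 differed by 0.45 under cisplatin (SE 0.19, limma adjusted p = 0.143) and -0.43 with CYM-5478 against cisplatin (SE 0.19, limma adjusted p = 0.184). The ratio of Mt-atp8 to Mt-atp6 was 9.97 ± 1.11 in vehicle, 10.4 ± 1.16 under cisplatin and 8.54 ± 0.589 with added CYM-5478 (SD, n = 4 each), with overlapping ranges.

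**Figure D2:**
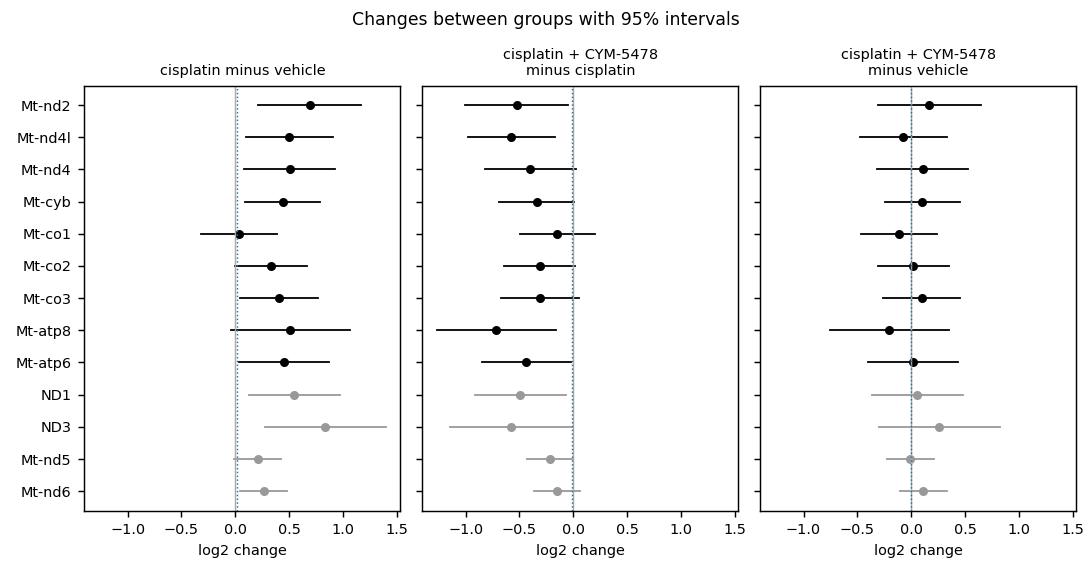
Log2 change with its 95% interval from limma for the 9 genes (black) and the other 4 mitochondrially encoded protein genes (grey) in the 3 comparisons. The dotted line marks the median over all tested genes, 0.02, -0.02 and 0.00 from left to right. The points lie above 0 in the left panel, below 0 in the middle panel and on both sides of 0 in the right panel.

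Counted over the set, 0 of the 9 genes passed the threshold for cisplatin against vehicle, where 10.7% of all tested genes did. At an unadjusted limma p under 0.05, 7 of 9 were higher, against 11.8% of all genes. The exceptions were Mt-co1 and Mt-atp8. Among vehicle rats, leaving out replicate 1 gave a count of 4 and leaving out replicate 2 a count of 1. Among cisplatin rats, leaving out replicate 2 gave 2 and leaving out replicate 4 gave 1. The number was 4 when no filter on low values was used and 1 after quantile normalization. All 9 fitted changes were above 0, as were 53.7% of those of all genes. In deposited FPKM the libraries did not overlap, with cisplatin higher, for 2 of 9 genes, Mt-co3 and Mt-atp8, against 7.34% of all genes.

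For CYM-5478 with cisplatin against cisplatin, 0 of 9 genes passed, where 5.62% of all genes did. At an unadjusted limma p under 0.05, 4 of 9 were lower, namely Mt-nd2, Mt-nd4l, Mt-atp8 and Mt-atp6, against 9.56% of all genes. Leaving out cisplatin replicate 1 gave 8, leaving out any 1 of cisplatin replicates 2 and 4 and CYM-5478 replicate 1 gave 2, and leaving out CYM-5478 replicate 4 gave 1. The count was 2 with no filter on low values, 0 after quantile normalization and 8 with array weights. All 9 changes were below 0, and 46.7% of all genes had a change above 0. The libraries did not overlap, with CYM-5478 lower, for 2 of 9 genes, Mt-co1 and Mt-atp8, against 6.54% of all genes.

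For CYM-5478 with cisplatin against vehicle, 0 of 9 genes passed, as did 0.0% of all genes, and at an unadjusted limma p under 0.05 the counts were 0 of 9 and 970 of all genes, or 5.79%. The changes were above 0 for 6 of 9 genes and for 49.7% of all genes. The 95% interval of each of the 3 genes named next included 0. It ran from -0.31 to 0.65 for Mt-nd2, from -0.46 to 0.24 for Mt-co1 and from -0.76 to 0.35 for Mt-atp8 on the log2 scale. The values of these groups were therefore neither separated nor shown to be alike.

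Together the 9 genes held 8.99%, 7.79%, 9.48% and 8.99% of the library FPKM sum in vehicle replicates 1 to 4. They held 8.76%, 11.4%, 10.5% and 12.2% in the cisplatin replicates and 8.15%, 8.24%, 9.40% and 7.21% with CYM-5478. The means were 8.81 ± 0.719%, 10.7 ± 1.47% and 8.25 ± 0.896% (SD, n = 4 each). Cisplatin replicate 1 lay inside the vehicle range, and the other 3 cisplatin libraries lay above all vehicle and CYM-5478 libraries. Mt-atp8 alone held 3.66%, 4.85% and 3.17% on average in the same order of groups, so this pattern leans on that gene. The share without Mt-atp8 is given at the end as group means only. Counted gene by gene on this scale, the cisplatin libraries lay above all vehicle libraries for 0 of 9 genes, against 1.3% of all genes, and the CYM-5478 libraries below all cisplatin libraries for 0 of 9, against 1.0% of all genes.

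**Figure D3:**
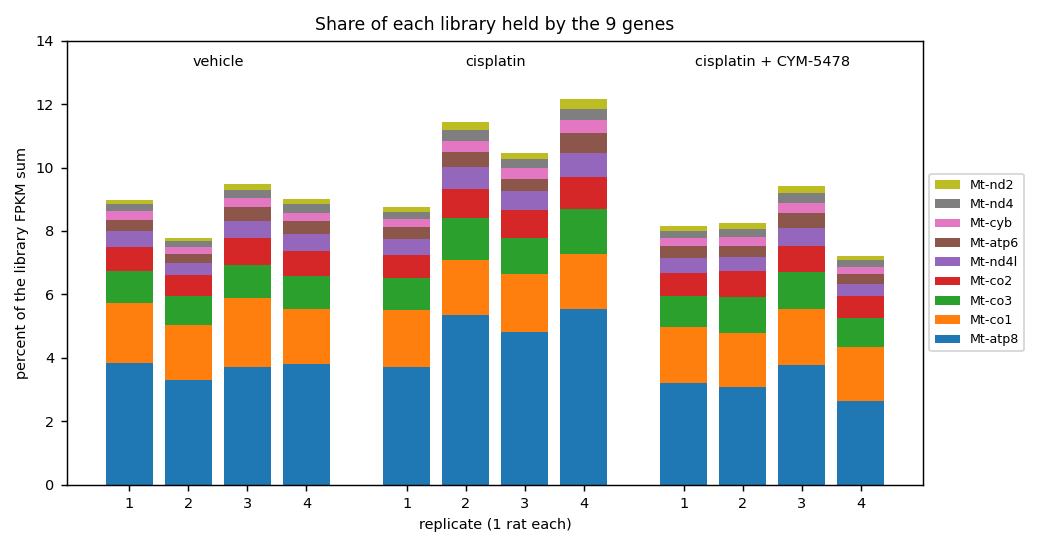
Share of each library's FPKM sum, in percent, held by each of the 9 genes, stacked, for every rat of the 3 groups. The full bars reach 7.79 to 9.48% in vehicle, 8.76 to 12.2% under cisplatin and 7.21 to 9.40% with added CYM-5478, and Mt-atp8 is the tallest segment in every bar.

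The FPKM sum itself, taken over the transcripts present in the table, differed between groups. It was 592845 to 608789 FPKM in the vehicle libraries, 640712 to 675894 FPKM in the cisplatin libraries and 595745 to 626299 FPKM with CYM-5478, without overlap between cisplatin and either other group. With the 9 genes taken out of the sum, all cisplatin libraries still lay above all vehicle libraries, at 586969 ± 9802 against 548995 ± 8135 FPKM (SD, n = 4 each), and the CYM-5478 libraries, at 555586 ± 13359 FPKM, overlapped with both. Taking values as shares therefore moved the median change of all genes under cisplatin from 0.02 to -0.09 on the log2 scale, and that of the 9 genes from 0.45 to 0.33. On shares, 8 of the 9 changes under cisplatin were above 0, all but that of Mt-co1, against 33.1% of all genes. At an unadjusted limma p under 0.05, 1 of 9 was higher, Mt-nd2, against 2.73% of all genes, and 0 of 9 passed the adjusted threshold, against 19.6%. For CYM-5478 against cisplatin on shares, 2 of 9 were lower at an unadjusted limma p under 0.05, Mt-nd4l and Mt-atp8, against 2.0% of all genes, and 0 of 9 passed the adjusted threshold, against 15.4%.

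By complex, the summed FPKM of the ATP synthase genes was 24274 ± 1694 in vehicle, 35053 ± 6559 under cisplatin and 21469 ± 3197 with added CYM-5478 (SD, n = 4 each), and the cisplatin libraries lay above those of both other groups. Mt-atp8 alone held 22036, 31943 and 19206 FPKM of these means, and Mt-atp6 overlapped between the groups. The separation of this sum therefore restates that of Mt-atp8, a gene of uncertain level. The complex I sum was 5206 ± 865, 7656 ± 1766 and 5261 ± 876 FPKM in the same order, with overlap. The complex IV sum was 21981 ± 1974, 25558 ± 2128 and 21527 ± 1541 FPKM, and here CYM-5478 was below cisplatin in every library while vehicle overlapped with both.

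The composition of the set was compared as well. Mt-co1 made up 21.4 ± 1.72% of the summed FPKM of the 9 genes in vehicle, 16.8 ± 2.77% under cisplatin and 21.1 ± 1.91% with added CYM-5478 (SD, n = 4 each), and cisplatin replicate 1, at 20.5%, lay within both other ranges. Mt-atp8 made up 41.6 ± 1.60%, 45.2 ± 1.98% and 38.3 ± 1.57%, and every CYM-5478 library, from 36.7% to 40.1%, was below every cisplatin library, from 42.3% to 46.8%. The ratio of Mt-co3 to Mt-co1 was 0.534 ± 0.0607 in vehicle, 0.696 ± 0.121 under cisplatin and 0.617 ± 0.0656 with added CYM-5478, and its ranges overlapped. Mt-co3 made up 11.4 ± 0.505% of the set in vehicle, 11.5 ± 0.389% under cisplatin and 12.9 ± 0.793% with added CYM-5478, where every library was above every library of the other groups. Its FPKM with CYM-5478 overlapped with both. All parts belong to the same sum, so a smaller part of Mt-atp8 raises the others. With CYM-5478 the part of Mt-co2 was also above every cisplatin library, and that of Mt-nd2 above every vehicle library.

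Among the 12 libraries, 8 of the genes varied together. Over the 28 pairs that leave out Mt-co1, the Pearson correlation of log2 values ran from 0.847 to 0.974, and over the 8 pairs with Mt-co1 it ran from 0.326 to 0.559. The points share their libraries and the groups, and the values of each library share a denominator, so these correlations describe the libraries only. The same rats stood at the ends of each group: vehicle replicate 2 was lowest for 8 of 9 genes, cisplatin replicate 1 lowest for 8 and replicate 4 highest for 8, and CYM-5478 replicate 4 lowest for all 9.

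The spread between rats was widest in the cisplatin group for 8 of the 9 genes, all but Mt-co1. The coefficient of variation of Mt-nd2 was 18.7% in vehicle, 30.6% under cisplatin and 18.3% with added CYM-5478. That of Mt-co1 was 11.8%, 0.801% and 2.71%.

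The other 4 mitochondrially encoded protein genes were examined in the same way. ND3, a small complex I subunit, was at 1307, 1049, 1284 and 1449.7 FPKM in the vehicle replicates, at 1483, 2742, 1829 and 3556 FPKM in the cisplatin replicates, and at 1201, 1815, 1914 and 1245 FPKM with CYM-5478. All cisplatin libraries were above all vehicle libraries, and the log2 change of 0.84 (SE 0.26, limma adjusted p = 0.0584) was larger than that of any of the 9 genes. ND1, the complex I subunit at the junction with the peripheral arm, had a log2 change of 0.55 (SE 0.19, limma adjusted p = 0.0868), and its libraries overlapped. Mt-nd5, the largest complex I subunit of the mitochondrial genome, had a fitted change of 0.21 (SE 0.10, limma adjusted p = 0.196). Mt-nd6, the complex I subunit transcribed from the opposite strand, was at 1116 ± 87.2 FPKM in vehicle, 1345 ± 125 FPKM in cisplatin and 1204 ± 124 FPKM with CYM-5478 (SD, n = 4 each). All of its cisplatin libraries were above all vehicle libraries, but only just, at 1240.5 FPKM or more against 1238.5 FPKM or less. Its log2 change was 0.26 (SE 0.10, limma adjusted p = 0.108). As shares of the library, ND3 and Mt-nd6 each overlapped between cisplatin and vehicle. Over all genes, cisplatin libraries lay above all vehicle libraries for 7.34% in FPKM and for 1.3% as shares. The ratio of Mt-cyb to Mt-nd6, a pair of neighbours on opposite strands, was 1.43 ± 0.0703, 1.63 ± 0.216 and 1.43 ± 0.200 in the same order of groups, with overlap.

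The nuclear genes of the same complexes were compared as well. Of 76 listed nuclear subunits of complexes I to IV and the ATP synthase, 69 were in the table and 68 were tested. Of these, 7 fell, 0 rose and 61 did not pass in cisplatin against vehicle (limma adjusted p under 0.05), with a median log2 change of -0.05, and over all genes 7.98% fell and 2.73% rose. Taken as shares of the library, 25 of 68 fell and 0 rose, and 18.9% of all genes fell. On scaled FPKM without cisplatin replicate 1, 3 fell and 1 rose. In complex I, 3 of 31 fell on the log2 scale: Ndufa10, an accessory subunit, by 0.33 (SE 0.061), Ndufs1, the large iron-sulfur subunit, by 0.33 (SE 0.069), and the accessory subunit Ndufa8 by 0.39 (SE 0.10). In complex II, which has no mitochondrially encoded subunit, 0 of 4 passed, and Sdhb, its iron-sulfur subunit, had a change of -0.12 (SE 0.052). In complex III, 0 of 7 passed, and the core protein Uqcrc1 had a change of -0.20 (SE 0.076).

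In complex IV, 1 of 11 nuclear subunits fell, Cox5a, a structural subunit, by 0.33 on the log2 scale (SE 0.084). In the ATP synthase, 3 of 15 fell: Atp5d, the delta subunit of the central stalk, by 0.35 (SE 0.071), Atp5g1, 1 of the genes for the c subunit of the rotor ring, by 0.36 (SE 0.082), and Atp5b, the catalytic beta subunit, by 0.22 (SE 0.063). With CYM-5478 against cisplatin 2 of the 68 rose, Atp5d by 0.27 (SE 0.071, limma adjusted p = 0.047) and Atp5g1 by 0.34 (SE 0.082, limma adjusted p = 0.0407), and 0 fell, where 4.53% of all genes rose. Against vehicle 0 of 68 passed.

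The summed FPKM of the 69 nuclear subunits was 12216 ± 711 in vehicle, 12616 ± 1031 under cisplatin and 12897 ± 974 with added CYM-5478 (SD, n = 4 each), with overlapping ranges. The ratio of the 9 mitochondrially encoded genes to this sum was 4.47, 3.58, 5.01 and 4.41 in the vehicle replicates, 5.12, 5.82, 5.26 and 6.05 in the cisplatin replicates, and 4.25, 3.80, 4.15 and 3.33 with CYM-5478. All cisplatin libraries were above all libraries of the other 2 groups, whose ranges overlapped. The margin was narrow, 5.12 in cisplatin replicate 1 against 5.01 in vehicle replicate 3. It leans on Mt-atp8, a gene of uncertain level that is the largest part of the mitochondrial sum in every library. Of the other mitochondrially encoded genes in that sum, only Mt-co3 had all cisplatin libraries above all vehicle libraries. A ratio without Mt-atp8 is not given, so a separation without that gene is not shown. In cisplatin replicate 1 the share of the library FPKM sum held by the 9 genes lay inside the vehicle range. The ratio does not depend on the scaling of a library, and it is given as a description without a test.

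**Figure D4:**
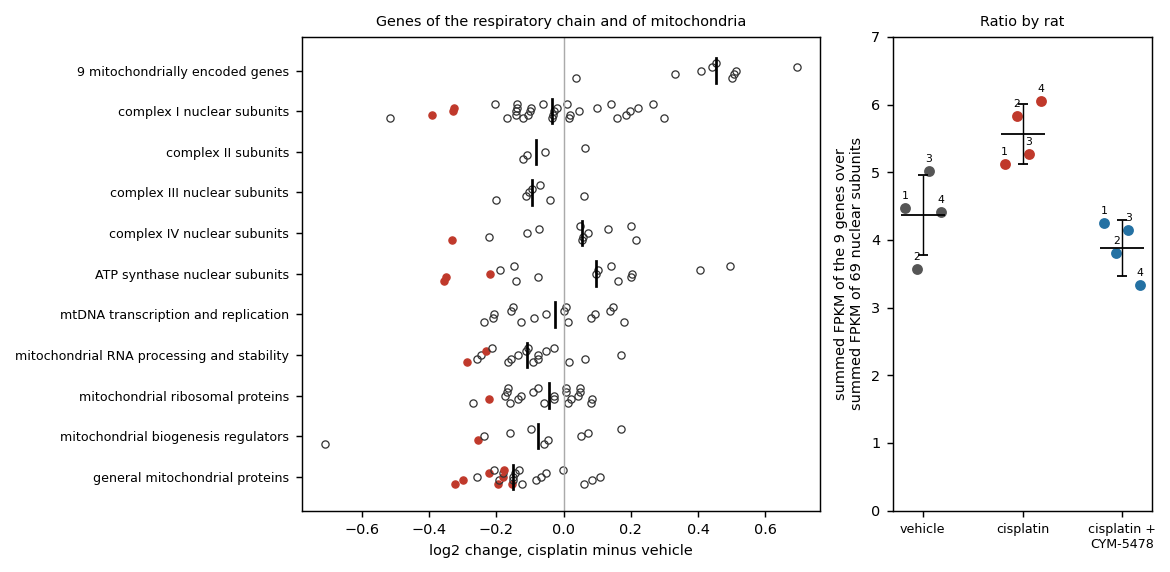
Left, log2 change of single genes, cisplatin minus vehicle, in the 9 mitochondrially encoded genes and in lists of nuclear genes, with filled points for a limma adjusted p under 0.05 and a black bar at each median. Right, summed FPKM of the 9 genes over that of 69 nuclear subunits in each rat, with mean ± SD of 4. The 9 genes lie between 0.04 and 0.69 with no filled point, the filled points of the nuclear lists all lie below 0, and the ratio is 5.12 to 6.05 in cisplatin and at most 5.01 elsewhere. Mt-atp8 is the largest part of the summed FPKM of the 9 genes in every rat.

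The genes that transcribe, process and translate mitochondrial RNA were followed as lists. Over all genes 7.98% fell and 2.73% rose for cisplatin against vehicle, and the counts below are to be read beside these shares. Of 16 genes for transcription and replication of mitochondrial DNA, 0 passed for cisplatin against vehicle. The polymerase Polrmt had a log2 change of -0.15 (SE 0.066, limma adjusted p = 0.157), the transcription factor Tfb2m -0.16 (SE 0.056, limma adjusted p = 0.0864) and the DNA-packaging factor Tfam 0.18 (SE 0.072, limma adjusted p = 0.126). Of 18 genes for processing and stability of mitochondrial RNA, 2 fell: Lrpprc, which stabilises mitochondrial messenger RNAs, by 0.29 (SE 0.070) and the oligoribonuclease Rexo2 by 0.23 (SE 0.059). Lrpprc rose with CYM-5478 against cisplatin by 0.27 (SE 0.070, limma adjusted p = 0.0449). Over all genes 4.53% rose in that comparison and 5.62% passed in either direction. Taken as shares of the library, 3 of the 16 and 9 of the 18 fell, against 18.9% of all genes. In the comparison of CYM-5478 with cisplatin 1 of the 16 fell, the ribosomal RNA methyltransferase gene Tfb1m, by 0.27 (SE 0.070, limma adjusted p = 0.0474), which was singled out after its values were seen. Of 22 mitochondrial ribosomal protein genes 1 fell, Mrps2, by 0.22 (SE 0.061). Of 10 regulators of mitochondrial biogenesis 1 fell, the nuclear receptor Esrra, by 0.26 (SE 0.069), and it rose by 0.27 with CYM-5478 against cisplatin (SE 0.069, limma adjusted p = 0.0447).

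Of 23 other nuclear genes for mitochondrial proteins, 7 fell and 0 rose under cisplatin, where 7.98% of all genes fell. As shares of the library 17 of 23 fell, against 18.9% of all genes. The 7 include Vdac1, the outer membrane channel, with a log2 change of -0.32 (SE 0.069), Idh3a of the citric acid cycle (-0.30, SE 0.080) and citrate synthase, Cs (-0.20, SE 0.049). The summed FPKM of this list was 2199.5 ± 104 in vehicle, 1983 ± 112 under cisplatin and 2193 ± 69.9 with added CYM-5478 (SD, n = 4 each), and the cisplatin libraries lay below all others. With CYM-5478 against cisplatin 2 of 23 rose, Vdac1 by 0.29 (SE 0.069, limma adjusted p = 0.0399) and Cs by 0.20 (SE 0.049, limma adjusted p = 0.0412). In that comparison 4.53% of all genes rose. Single-gene calls for cisplatin against vehicle, in these lists as elsewhere, rest on individual rats: 3 genes of the whole table passed when vehicle replicate 2 was left out, 0 when cisplatin replicate 4 was and 643 when cisplatin replicate 1 was. None of the genes of the mitochondrial lists or of the marker lists for neurons and fibroblasts passed in the first or the second of these cases. For CYM-5478 against cisplatin 0 genes passed without any 1 of vehicle replicate 1, cisplatin replicates 1 or 4, or CYM-5478 replicates 2, 3 or 4.

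Markers of cell types differed between the groups and are given beside the mitochondrial values. The neuronal markers that define the ganglion were present in every library. Uchl1, a neuronal deubiquitinase, was at 1150.3 ± 139 FPKM in vehicle, 731 ± 123 FPKM in cisplatin and 1052 ± 106 FPKM with CYM-5478 (SD, n = 4 each). Over all genes 7.98% fell and 2.73% rose under cisplatin, 18.9% fell as shares of the library, and 4.53% rose with CYM-5478 against cisplatin. Of 16 neuron markers, 13 fell under cisplatin, 15 did as shares of the library, and 8 rose with CYM-5478 against cisplatin. Their summed FPKM was 5165 to 7434 in vehicle, 2690.1 to 4532 under cisplatin and 5342 to 6672 with added CYM-5478, so that cisplatin lay below both other groups while the 9 mitochondrially encoded genes had their highest means there. Of 11 fibroblast markers 5 rose, and their sum was 5042 to 5841 FPKM in vehicle and 6684 to 7487 FPKM in cisplatin, against 5255 to 5696 FPKM with CYM-5478. Myelinating Schwann cell markers, 1 of 12 of which rose, summed to 19527 to 27671 FPKM in vehicle, 24889 to 31118 FPKM in cisplatin and 18765 to 26262 FPKM with CYM-5478. As shares of the library 2 of the 11 fibroblast markers and 0 of the 12 Schwann cell markers rose. The part of these cell types in the mitochondrial values was not tested.

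Muscle and blood are rich in mitochondrial or in haemoglobin transcripts and were checked as well. Of 16 tested skeletal muscle markers 0 passed, and their sum was 52.7 to 67.0 FPKM in vehicle, 33.8 to 126 FPKM in cisplatin and 51.0 to 71.2 FPKM with CYM-5478. It was highest in cisplatin replicates 2 and 3 (126 and 80.8 FPKM) and was 43.8 FPKM in cisplatin replicate 4. Pvalb alone averaged 34.6 FPKM of a mean sum of 59.3 in vehicle, 26.2 of 71.2 in cisplatin and 31.7 of 56.45 with CYM-5478. The log2 change of Pvalb under cisplatin was -0.46, whereas 15 of the 16 changes were above 0. The sum therefore leans on this gene and is a poor measure of muscle. Without cisplatin replicates 2 and 3 the median log2 change of the 9 genes under cisplatin was 0.45, 1 of the 9 had an unadjusted limma p under 0.05, and the lowest limma adjusted p was 0.157. That left cisplatin replicates 1 and 4, the lowest and the highest of their group for 8 of the 9 genes. The median then rests on these rats alone and does not bear on muscle. Of 8 red blood cell markers 0 passed, with sums of 8557 to 14911 FPKM in vehicle, 10039 to 34168 FPKM in cisplatin and 5519 to 20515 FPKM with CYM-5478. The highest sum was in cisplatin replicate 1, the lowest of its group for 8 of the 9 mitochondrially encoded genes and the highest for Mt-co1. The part of muscle and blood in the mitochondrial values was not tested. Among 7 brown fat markers Elovl3 was listed at 0 in every library and Ucp1 was at most at 0.670 FPKM. Others of this list were present: Fabp4 averaged 7.8 FPKM in vehicle and 14.1 FPKM in cisplatin, Adipoq 4.3 and 5.3 FPKM, and Plin1 1.2 and 1.7 FPKM. The log2 change of Cidea was 0.00. Of 11 macrophage, 10 neutrophil and 10 satellite glia markers tested, 0, 0 and 4 passed for cisplatin against vehicle, the last with 1 rise and 3 falls. Over all genes 10.7% passed. Of 10 endothelial markers 1 rose, 0 as shares of the library, and of 4 tested brown fat markers 0 passed.

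The genes whose log2 values were most like the mean of the 9 over the 12 libraries were sought among 15321 genes with a mean of at least 1 FPKM. ND1 was first, with a Pearson correlation of 0.979, followed by Mt-nd5 (0.95), Anapc13 (0.949), Esf1 (0.946), Serbp1 (0.943) and ND3 (0.935). Mt-nd6 ranked 64, at 0.828. Of the nuclear genes among these, Serbp1, an RNA-binding protein found on ribosomes, rose under cisplatin by 0.32 (SE 0.088, limma adjusted p = 0.0417). Anapc13, a subunit of the anaphase-promoting complex, had a log2 change of 0.38 (SE 0.13, limma adjusted p = 0.0848) and Esf1, a nucleolar protein, 0.13 (SE 0.068, limma adjusted p = 0.227). The most opposite genes were Mpp2 (-0.93), Ilf2 (-0.917), Wdr61 (-0.906) and Tssc1 (-0.903). Of these Mpp2, a scaffold protein of the membrane-associated guanylate kinase family, fell by 0.58 (SE 0.16, limma adjusted p = 0.0452) and Tssc1 by 0.40 (SE 0.10, limma adjusted p = 0.0319). These rankings rest on 12 libraries in 3 groups and no p is given for them.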

How the data were processed

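Directional libraries were prepared from ganglion RNA after removal of rRNA, per the labels' protocols. The submitters' processing notes list STAR 2.7.8a, Bowtie2 2.0.6, FastQC, bcl2fastq 2.20 and DESeq2, and the build Rnor_6.0, with no role. The deposited table holds the authors' FPKM for 30275 transcripts, and the program that made it is not given in the sources used here. It is much smaller than its listed size, so further transcripts are not analysed here, and which ones are absent is unknown. Library FPKM sums, shares of them and ranks among all genes therefore cover only the transcripts present. Depth is unknown, so no counting intervals are given. Transcript values were summed by gene, and libraries were scaled by median ratios (0.9983 to 1.0118). Genes averaging at least 0.5 FPKM were fitted as log2(FPKM + 0.5) with limma 3.58.1 in R 4.3.3 (3 group means, 12 libraries, 9 residual degrees of freedom, variance trend), with an adjusted threshold of 0.05. The procedure was tested on simulated data with independent noise for each gene and library. That test does not cover deviations that the genes of a library share. A fold change on this scale understates low genes. Replicate numbers are those of the descriptions; titles number the rats differently. Of 288 list symbols in 20 lists, 270 matched by symbol, 5 by alias and 13 did not match. Named were all 9 genes, from each list the 3 of smallest p and up to 6 past the threshold, the 6 most like and 4 most opposite genes; of these, examples are printed. The genes and lists were chosen with earlier results of these data known. Alternatives covered pseudocount, filter, scaling, weights, replicate blocks and libraries left out.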

Additional observations from a re-analysis of the deposited data

Results flagged for a closer look

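In 2 of 42 groups of 4 libraries, 1 library lay far from the others, with a gap to its nearest neighbour above Dixon's 95% critical share of the group's range, and chance gives about 1 in 20 groups. With CYM-5478, Mt-co1 was at 10015.8 FPKM in replicate 4, while the other 3 libraries lay between 10576 and 10588 FPKM. In vehicle, Mt-atp8 was at 19944.8 FPKM in replicate 2, below the other 3 libraries at 22569 to 23005 FPKM. These are the same rats that were lowest for all 9 and for 8 of the 9 genes in their groups.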

How the results depend on the processing

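The 9 genes were fitted under 25 alternative settings, giving 225 values for each comparison. For cisplatin against vehicle 216 values kept direction and side of the threshold, for CYM-5478 against cisplatin 220 and for CYM-5478 against vehicle 210, besides 1 value in each, of Mt-atp8 after quantile normalization, that is 0 and has no direction. Members past the threshold numbered 1 with array weights (Mt-nd2) and 0 to 1 over the libraries left out in turn for cisplatin against vehicle, and 1 with a filter of 2 FPKM (Mt-atp8) for CYM-5478 against cisplatin. For cisplatin against vehicle Mt-co1 reversed with TPM (-0.0852), TPM over the other genes (-0.0549), quantile normalization (-0.2005) and the title-number block (-0.0098), and ran from -0.0118 to 0.111 with libraries left out, and Mt-co2 reversed with quantile normalization (-0.0526). For CYM-5478 against cisplatin quantile normalization turned Mt-co1 (0.1315), Mt-co2 (0.1748) and Mt-co3 (0.071). For CYM-5478 against vehicle Mt-co2 turned with TPM over the other genes (-0.0024), the title block (-0.0613) and array weights (-0.0102), with -0.0577 to 0.0846 over libraries left out, and Mt-atp6 turned with the same 3 settings (-0.0048, -0.0111 and -0.0362) and with quantile normalization (-0.1447), with -0.1029 to 0.0985 over libraries left out. With libraries left out Mt-nd4l ran from -0.1988 to 0.0284 and Mt-nd4 from -0.011 to 0.2134 there. The cause was not tested. Quantile normalization sets values by rank, so for genes this near the top of the table its turns can arise by construction. Over all genes 1794 passed for cisplatin against vehicle (457 higher, 1337 lower), 3293 with TPM (117 higher, 3176 lower), 961 with the 8 libraries of the comparison and 0 to 1847 with libraries left out (leaving out vehicle replicates 2 or 3 gave 3 or 1167, and cisplatin replicates 1 or 4 gave 643 or 0). For CYM-5478 against cisplatin 941 passed (759 higher, 182 lower), 2 without the filter, 2577 with TPM (2528 higher, 49 lower), 1705 with TPM over the other genes (1636 higher, 69 lower), 0 with the 8 libraries, 452 with array weights and 0 to 1085 with libraries left out (391 and 582 without vehicle replicates 3 and 4, 0 without vehicle replicate 1, cisplatin replicates 1 or 4, or CYM-5478 replicates 2, 3 or 4). For CYM-5478 against vehicle 0 passed, 1 with the 8 libraries and 0 to 2 with libraries left out. Where 0 genes passed for CYM-5478 against cisplatin with the 8 libraries, 4002 had an unadjusted limma p under 0.05. Same-numbered rats did not deviate together (description numbers, 12 pairs, r -0.244 to 0.154, and title numbers, 7 pairs, r -0.108 to 0.142), so no pairing by number was seen. So few pairs cannot exclude that rats of a number shared some handling. With a replicate block by description number 1881, 1304 and 0 genes passed in the 3 comparisons, and with a replicate block by title number 0, 0 and 0. The share of the FPKM sum held by all 13 mitochondrially encoded genes was 9.664% in vehicle, 11.8% under cisplatin and 9.16% with CYM-5478, and without Mt-atp8 that of the members was 5.152%, 5.852% and 5.079% in the 3 groups, both chosen after seeing the data. With libraries left out the shares ran from 8.591% to 9.154% in vehicle, 10.22% to 11.35% in cisplatin and 7.868% to 8.596% with CYM-5478. Depth is unknown, so counting error cannot be separated from differences between rats.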
